A study of Drosophila melanogaster with 14 samples.

Results

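Genes transcribed in enterocytes (ECs) of the adult *Drosophila* midgut were sorted by whether Sox21a already occupied them in the stem/progenitor cells from which ECs arise. An EC gene was defined as a Release 6 gene with a mean EC Pol II occupancy of at least 1 (log2 of Dam-Pol II over Dam). This gave 2932 EC genes among 14797 genes with at least 3 GATC fragments, or 19.8%. Each was set against its Sox21a occupancy in intestinal stem cells and enteroblasts (ISC/EBs), and against Pol II occupancy in the same ISC/EBs. EC genes were called EC-only where ISC/EB Pol II was below 0.5 (364 genes), shared where it was at least 1 (2318 genes) and intermediate in between (250 genes).

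Targeted DamID expresses a fusion of Dam methylase and a protein of interest at a low level in chosen cells of a dissected tissue. The series holds 14 samples. Dam-Sox21a (3 samples) and its Dam control (3 samples) were expressed in ISC/EBs with the esg driver, Dam-Pol II (2 samples) and Dam (2 samples) in ISC/EBs with the same driver, and Dam-Pol II (2 samples) and Dam (2 samples) in ECs with the myo (Myo1A) driver. The esg driver marks ISCs and EBs together, so the tracks do not separate these cell types. The sources used here give neither sex, age nor strain of the flies. For each experiment the authors deposited 1 track averaged over samples, so no spread between samples, no SD and no test of a difference could be obtained, and the sequencing depth behind the values was not determined here. Every comparison is therefore a description of 3 averaged tracks, and the 95% Wilson intervals on shares of genes cover counting error only.

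ISCs divide to give EBs, which differentiate into absorptive ECs that secrete digestive enzymes, take up nutrients and form the gut barrier. Sox21a is a TF of the Sox family, which binds DNA through an HMG box, and it is required for EB differentiation and for control of ISC proliferation. It is expressed in ISC/EBs, so Sox21a on a gene in ISC/EBs and Pol II on that gene in ECs are measured at successive steps of one lineage. Methylation by Dam marks the GATC sites close to where the fusion protein sits. A value of 1 stands for a doubling over Dam alone. Sets of 3 values are given in the order Sox21a in ISC/EBs, Pol II in ISC/EBs and Pol II in ECs.

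The tracks matched the labelled cells at most marker genes. In the EC track, alphaTry, betaTry and Jon65Aiii, which encode digestive proteases, had 1.63, 2.16 and 2.91. The other EC markers were less specific. The gene of the EC driver, Myo31DF, had Pol II in both populations (1.47 in the ISC/EB track, 1.30 in the EC track), and the EC TF gene nub reached only 0.63 in ECs. The ISC/EB markers esg, N, mira and E(spl)mbeta-HLH ranged from 1.24 to 3.63 in the ISC/EB track and from -0.26 to -0.10 in the EC track. A longer list of 15 progenitor markers was less uniform. Pvr (0.49), Atac2 (0.19), upd1 (-0.09) and gig (-0.31) were below 0.5 in the ISC/EB track, and Cdk1 had 2.14 in the EC track. All 6 enteroendocrine, 5 visceral muscle and 4 hemocyte markers lay at or below 0.17 in the ISC/EB track and at or below 0.12 in the Sox21a track. In the EC track the highest of them was the enteroendocrine peptide gene Dh31 at 0.58. These were the defining markers. In longer lists of 38 markers of the same cell types, 4 had ISC/EB Pol II of at least 0.5. They were the peptide amidation gene Phm (0.42, 1.35 and 0.32), the neuropeptide gene Orcokinin (0.21, 0.76 and 0.04), the tropomyosin gene Tm1 (0.92, 1.35 and 0.60) and the hemocyte receptor gene crq (1.72, 2.58 and 1.25), and Tm1 and crq carried a Sox21a peak. The part of other cells in the tracks was not tested.

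The share of genes with a Sox21a peak was above that of all genes in EC genes as a whole, and below it in EC-only genes. A Sox21a peak overlapped the body of 2893 of all 14797 genes, or 19.6%, and of 1216 EC genes (41.5%, 95% interval 39.7% to 43.3%). Among shared genes, 1138 carried a peak (49.1%, 47.1% to 51.1%). Among EC-only genes, 25 did (6.87%, 4.70% to 9.94%). Of the 9688 genes with Pol II below 1 in both populations, 8.30% did. Intermediate EC genes lay between these groups, with 53 of 250 (21.2%).

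The level of Sox21a over the gene gave the same order. The median was 1.07 in shared genes (quartiles 0.66 and 1.46), 0.41 in intermediate genes (0.17 and 0.65) and 0.05 in EC-only genes (-0.13 and 0.27), beside 0.12 in all genes. After quantile normalisation, which gives the ISC/EB Pol II track the same distribution of values as the EC track, 565 genes were EC-only and their median Sox21a was 0.16, above that of all genes. EC Pol II had the same median, 1.52, in shared and in EC-only genes. Their ISC/EB Pol II, which defined them, had medians of 2.02 and 0.13. Sox21a reached 0.5 in 4198 of all genes (28.4%), in 1919 shared genes (82.8%) and in 34 EC-only genes (9.34%). It lay below 0 in 157 EC-only genes (43.1%) and in 53 shared genes (2.29%), beside 37.3% of all genes and 53.1% of the genes with Pol II below 1 in both populations.

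**Figure D1:**
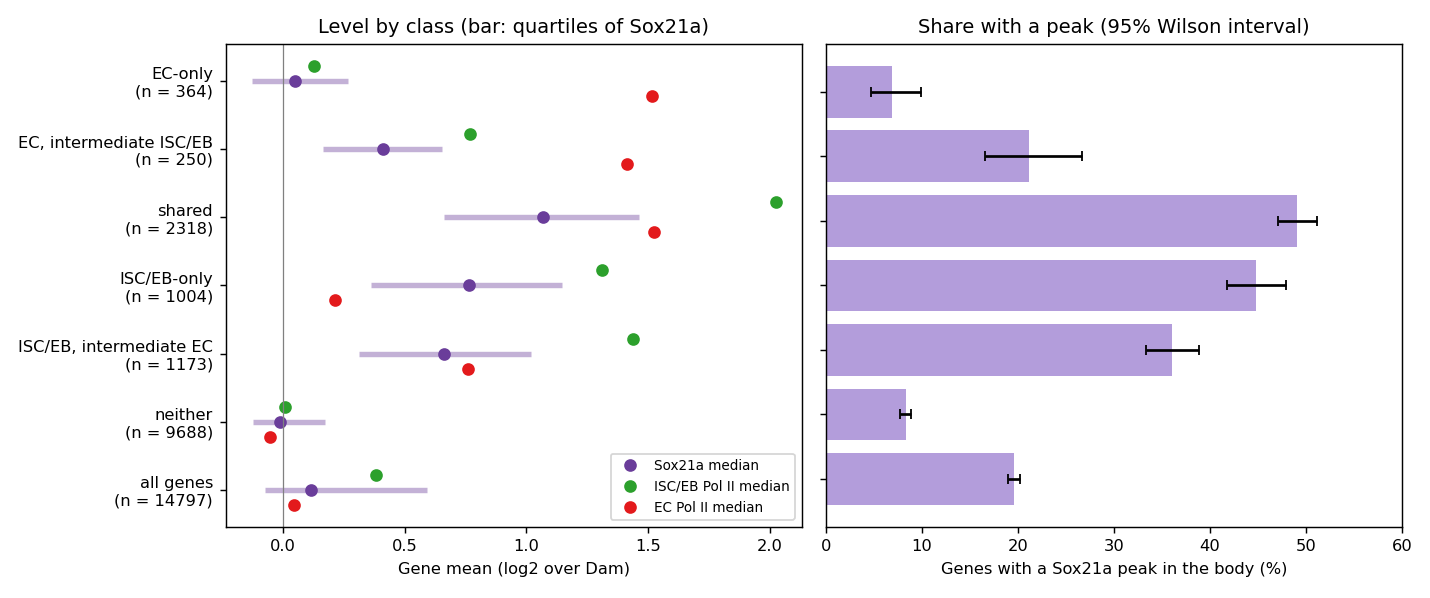
Left, median Sox21a (purple, bar from lower to upper quartile), ISC/EB Pol II (green) and EC Pol II (red) gene means on the log2 scale for each class of genes; right, percentage of genes with a Sox21a peak in the body, with 95% Wilson intervals. EC-only and shared genes have the same median EC Pol II (1.52) but 6.87% and 49.1% of them carry a peak.

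Genes with Pol II in ISC/EBs but not in ECs also carried peaks. Of 1004 ISC/EB-only genes (ISC/EB Pol II of at least 1 and EC Pol II below 0.5), 450 had a peak (44.8%, 41.8% to 47.9%), and their median Sox21a was 0.77. Those genes had less ISC/EB Pol II (median 1.31) than shared genes. EC and non-EC genes were therefore also compared at matched ISC/EB Pol II.

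At ISC/EB Pol II below 1, EC genes and the remaining genes carried peaks at shares whose intervals overlapped. With ISC/EB Pol II below 0, a peak was found in 0 of 133 EC genes, with an interval up to 2.81% (3 counts would be 2.26%), and in 0.762% of 4596 genes under the EC level. From 0 to 0.5 the shares were 10.8% of 231 EC genes (7.44% to 15.5%) and 10.5% of 3054 others (interval up to 11.7%), and from 0.5 to 1 they were 21.2% of 250 (16.6% to 26.7%) and 21.9% of 2038 (20.2% to 23.8%). The last range depended on the scaling. After quantile normalisation it held 38.5% of 507 EC genes (34.3% to 42.8%) and 33.0% of 1804 others (30.9% to 35.2%). Above this the order varied. From 1 to 2 the share was higher in EC genes (42.8% of 1130, against 36.9% of 1921), where the EC genes also had more ISC/EB Pol II (median 1.62 against 1.32). It was lower in EC genes after quantile normalisation (47.1% against 51.3%). At 2 and above the share was lower in EC genes (55.1% of 1188, against 64.1% of 256), and median Sox21a was 1.35 against 1.45. Quantile normalisation widened this gap to 67.9% of 408 EC genes (63.2% to 72.2%) against 95.5% of 44 others (84.9% to 98.7%). From 0 to 2 the level of Sox21a was higher in EC genes. Its medians were 0.14 against 0.05 (0 to 0.5), 0.41 against 0.28 (0.5 to 1) and 0.80 against 0.65 (1 to 2). From 0 to 1 EC genes also had more ISC/EB Pol II (medians 0.26 against 0.19 and 0.77 against 0.74). Below 0 the Sox21a medians were -0.11 and -0.09. Quantile normalisation kept the order of the Sox21a medians from 0 to 2 (1.07 against 1.04 from 1 to 2).

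**Figure D2:**
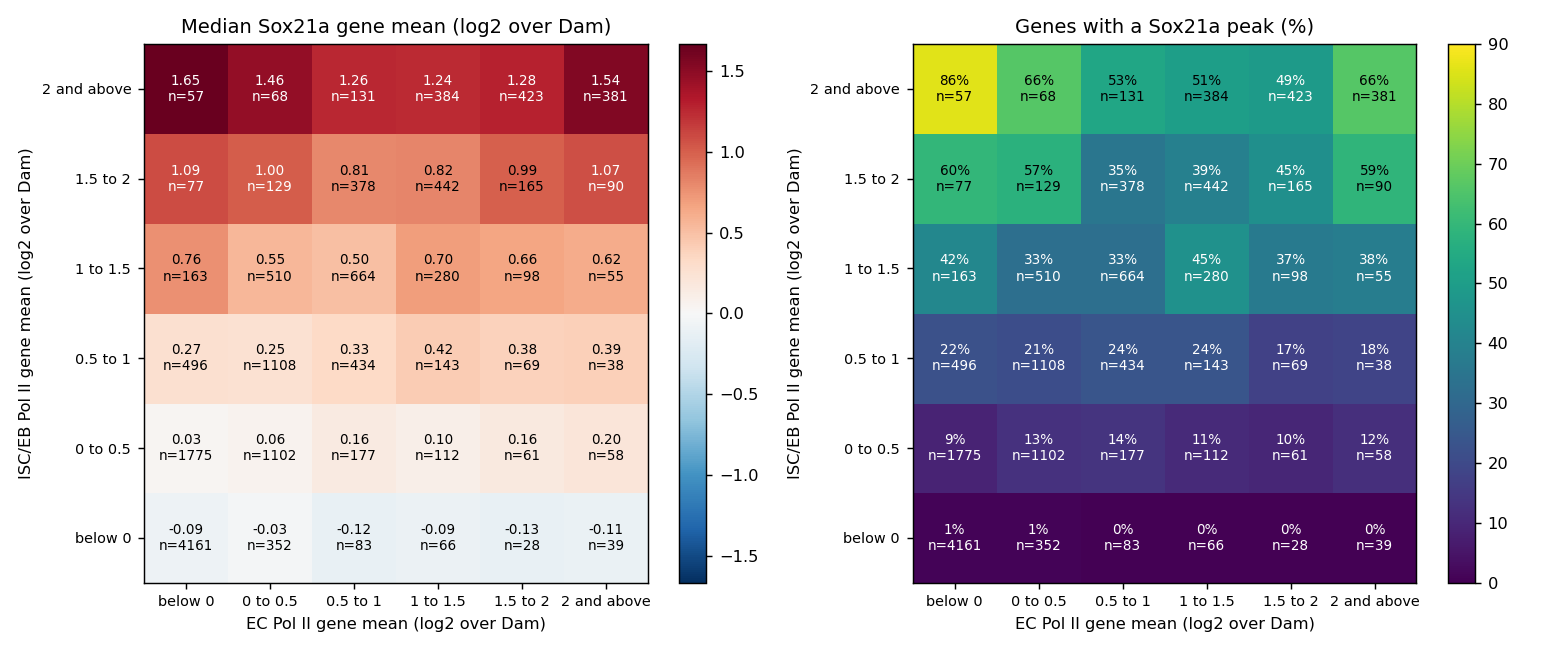
Median Sox21a gene mean (left, log2 over Dam) and percentage of genes with a Sox21a peak (right) for genes binned by ISC/EB Pol II (rows) and EC Pol II (columns), with the number of genes in each bin. Values change more from row to row than from column to column, and the bottom row stays near 0 up to the highest EC Pol II.

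Across all 14797 genes, Sox21a correlated with EC Pol II (Pearson's r = 0.60, Spearman's rho = 0.60) and more closely with ISC/EB Pol II (r = 0.82, rho = 0.79), and the Pol II tracks correlated with each other (r = 0.72). With ISC/EB Pol II and the number of fragments held fixed, the partial correlation of Sox21a with EC Pol II was 0.04. It was 0.10 over genes with at least 10 fragments, 0.07 over protein-coding genes and 0.0033 over genes with at least 1 fragment. The reverse partial correlation, of Sox21a with ISC/EB Pol II at fixed EC Pol II, was 0.70. In a linear fit to both Pol II tracks, the slope of Sox21a was 0.51 per unit of ISC/EB Pol II and 0.02 per unit of EC Pol II. Within the 364 EC-only genes, where ISC/EB Pol II covers a narrow range, r was 0.03 with EC Pol II and 0.46 with ISC/EB Pol II. Within the 2932 EC genes the partial correlation with EC Pol II was 0.12. Genes are not independent points here. They share fragments, mappability and neighbours, and 50.5% of EC genes overlap another analysed gene, so these values carry no p.

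Distances to peaks around EC-only genes were near those of genes with Pol II below 1 in both populations. A peak lay within 2 kb of 27.6% of all genes, of 13.5% of EC-only genes (49), of 15.4% of genes low in both populations and of 58.3% of shared genes (1352). The median distance to the nearest peak was 12261.5 bp from EC-only genes, 15409 bp from genes low in both, 175 bp from shared genes and 9616 bp from all genes. In the 500 bp on either side of the gene body the median Sox21a was 0.19 for EC-only and 1.01 for shared genes, and from 5 to 10 kb away it was 0.19 and 0.34. Between these distances the EC-only median was as low as 0.10, and over the gene body it was 0.05. Around shared genes the median was lower with distance, from 1.07 over the gene body. Of the 2769 peaks, 25 (0.903%) touched an EC-only gene, 1020 (36.8%) a shared gene and 94.0% any analysed gene. These classes differ in size, with 364 EC-only and 2318 shared genes among 14797.

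The gap was present at each gene size examined. EC-only genes had a median of 10 fragments and shared genes 8. Among genes with 5 to 9 fragments, peaks overlapped 3.39% of 118 EC-only genes and 35.7% of shared genes, beside 11.9% of all genes. With 20 to 49 fragments, they overlapped 12.1% of 66 EC-only genes, 86.9% of shared genes and 30.2% of all genes. The share in EC-only genes was between 2.47% with a required overlap of 500 bp and 13.5% with peaks within 2 kb. It was 10.6% after quantile normalisation, a scaling that lowered the median ISC/EB gene mean by 0.24.

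By definition of the class, the 25 EC-only genes with a peak had a mean ISC/EB Pol II below 0.5. These genes had a median ISC/EB Pol II of 1.63 inside the peak. They included the arginine kinase gene Argk1, the organic anion transporter gene Oatp33Ea, the potassium channel gene Ork1, the mucin-related gene Mur29B, the lysine catabolism gene LKRSDH, the cytochrome P450 gene Cyp6a2, the Hippo pathway gene sav and the planar polarity gene mwh. Their median Sox21a was 0.38, against 0.03 in the 339 EC-only genes without a peak, and 7 of the 25 reached 0.5. Their ISC/EB Pol II (median 0.35) was also higher than in those without a peak (0.08).

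In most of them the peak covered a small stretch. CG11911 had the highest Sox21a mean (1.33, 0.42 and 2.74), but only 38 bp of its body lay in a peak that reached over the neighbouring gene CG33127, whose ISC/EB Pol II was 2.42. In Cyp6a2 the overlap was 3 bp. An overlap of at least 500 bp was found in 9 of the 25 genes. The peaks of 10 genes also covered another gene with ISC/EB Pol II of at least 1, and those of 9 genes covered no other analysed gene. These 9 were CG7255, CG13315, CG10939, Argk1, Mipp1, CG7408, Ork1, CG1941 and CG9826.

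Inside the peak, these genes had more ISC/EB Pol II than over the rest of the gene. Sox21a is higher there by the definition of a peak. ISC/EB Pol II was higher inside the peak than outside it in 25 of 25 genes, with medians of 1.63 and 0.24. EC Pol II was higher inside in 18 of 25, with medians of 2.35 and 1.53. In several genes, such as CG11911, CG6484 and Cyp6a2, the inside value came from 1 fragment. In Cyp6a2 that fragment had an ISC/EB Pol II of 3.04, although the peak overlapped the gene by 3 bp. In Ork1 the inside value came from 10 fragments. Shared genes had the same pattern, with ISC/EB Pol II higher inside the peak in 892 of 946 genes that had fragments both inside and outside (medians 2.78 and 1.35).

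**Figure D3:**
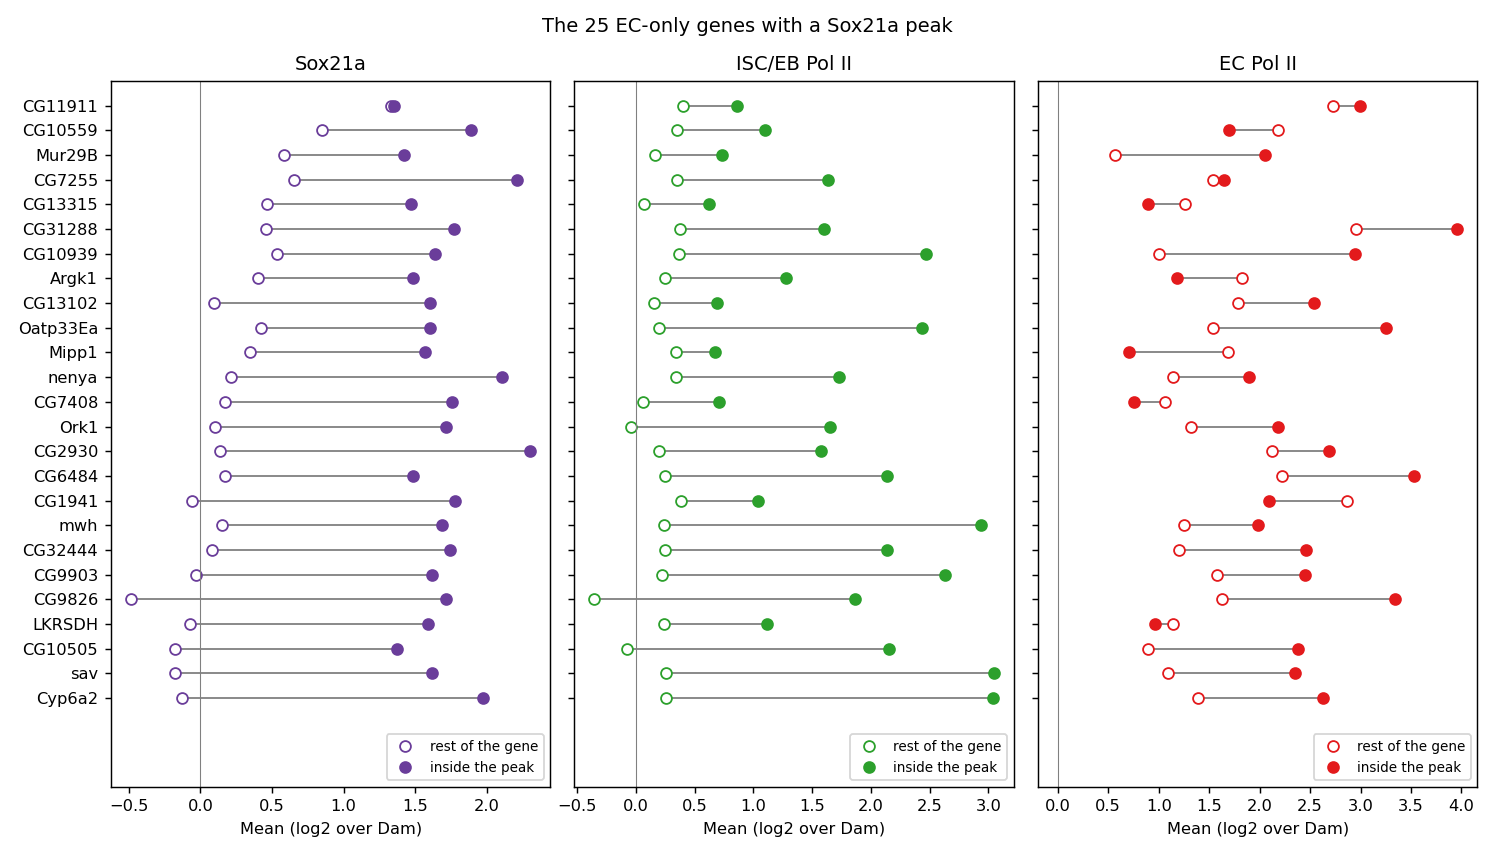
Mean log2 ratio over the fragments inside the Sox21a peak (filled circles) and over the rest of the gene (open circles) for the 25 EC-only genes with a peak, in the Sox21a (purple), ISC/EB Pol II (green) and EC Pol II (red) tracks, ordered by Sox21a gene mean. The filled green circle lies to the right of the open one in 25 of 25 genes. In several genes, such as Cyp6a2, the filled circle is the value of 1 fragment.

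Ork1 shows the pattern in a gene with many fragments. It encodes an open rectifier potassium channel, lies on chromosome X from 10878054 to 10891250 and holds 78 fragments. Its gene means were 0.35, 0.22 and 1.46. In its single peak (10886709 to 10888753) the values were 1.71, 1.66 and 2.19, and outside it the values were 0.10, -0.04 and 1.32. EC Pol II was thus high inside and outside the peak, while Sox21a and ISC/EB Pol II were near 0 outside it.

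Several others of the 10 with the highest Sox21a means are known by gene number only. CG10559 (1.01, 0.47 and 2.10) and CG31288 (0.59, 0.50 and 3.05) lie within 20 kb of each other on chromosome 3R, from 25314494 to 25316116 and from 25297960 to 25299557. Both have ISC/EB Pol II just under the level of 0.5 that separates EC-only from intermediate genes. Argk1, which buffers cellular ATP, had 0.46, 0.30 and 1.79, and Oatp33Ea had 0.43, 0.22 and 1.55. Mur29B had 0.83, 0.33 and 1.01 and lay just above the EC level. CG7255 had 0.76, 0.44 and 1.54, CG13315 0.73, 0.21 and 1.16, CG10939 0.59, 0.47 and 1.09, and CG13102 0.44, 0.28 and 1.96.

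The EC-only genes with the highest EC Pol II and no peak within 2 kb included genes of digestive proteases, and 8 of these 10 genes were low in both progenitor tracks. Jon99Ci, a Jonah serine protease gene on chromosome 3R from 29925226 to 29926189, had -0.43, -0.38 and 3.04, and the nearest peak was 24730 bp away. The trypsin gene kappaTry (chromosome 2R, 11337797 to 11338733) had 0.03, -0.01 and 3.04, with the nearest peak 40436 bp away. Jon65Aiii had -0.20, 0.03 and 2.91. These 3 genes had high Pol II in ECs and neither Pol II nor Sox21a above 0.03 in ISC/EBs.

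The same pattern was seen at CG4653 (-0.02, -0.18 and 3.07), CG15044 (-0.10, -0.20 and 3.03), CG4363 (0.18, -0.27 and 3.02), CG4734 (0.15, -0.10 and 2.96) and lncRNA:CR44469 (-0.04, -0.02 and 3.14). CG15255 and CG9673 were exceptions with some Sox21a. CG15255 had 0.89, 0.33 and 3.20, and CG9673 had 0.61, 0.13 and 3.12, with no peak nearer than 17534 and 9068 bp. CG9673 and CG4653 are neighbours on chromosome X and both overlap CG4678. EC-only genes are thus not all separate loci, and 197 of the 364 (54.1%) lie within 5 kb of another EC-only gene.

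Absence of a peak was not absence of signal. Of the 339 EC-only genes without a peak, 27 had a Sox21a mean of at least 0.5. The highest, named after their values were seen, were CG42397 (1.28), the neuropeptide gene CCAP (1.22), the metalloprotease gene Semp1 (1.10) and the metallothionein gene MtnC (1.02). MtnC had 1.02, 0.33 and 2.49 over 4 fragments, and the serine protease homologue gene sphe had 0.82, 0.01 and 2.07 over 16 fragments. In these 5 genes the Sox21a mean was above that of ISC/EB Pol II, although no peak was called over them.

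Shared genes with a peak had more Sox21a than those without, which follows from the split, as peaks were called on the same signal. They were also longer, and longer genes are more often overlapped by a peak. Of shared genes with 3 to 4 fragments 36.6% carried a peak, and of those with 50 or more 98.6%. The 1138 with a peak had a median Sox21a of 1.38, ISC/EB Pol II of 2.13 and EC Pol II of 1.62. The 1180 without had 0.75, 1.93 and 1.48. Genes with a peak had a median of 11 fragments and 2465 bp, against 7 fragments and 1428.5 bp. Of those without a peak, 812 still had a Sox21a mean of at least 0.5, and 50 lay below 0.

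The shared genes with the highest Sox21a were short or noncoding. Thor, which encodes the translation inhibitor 4E-BP, lies on chromosome 2L from 3478434 to 3479612 and had 2.75, 3.29 and 2.72. CG17486 had 2.67, 3.14 and 2.02. The others were asRNA:CR44724 (3.17, 2.59 and 1.26), lncRNA:CR46015 (2.86, 2.42 and 1.34), asRNA:CR44907 (2.70, 2.04 and 1.42) and asRNA:CR44987 (2.62, 3.07 and 2.16). DamID does not tell strands apart, so signal at an antisense gene cannot be separated from that of the gene it overlaps.

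Some shared genes had as much EC Pol II as the leading proteases and no peak within 2 kb. Ssk encodes a membrane protein of the smooth septate junction that seals the gut epithelium. It had 0.99, 1.52 and 3.17 over 5 fragments, and the nearest peak was 5706 bp away. It lies within CG42674, so its fragments also belong to that gene. The mitochondrial ribosomal protein gene mRpS10 had 1.54, 2.63 and 3.05, CG13319 1.5, 2.16 and 3.02, and UQCR-11L 0.90, 1.68 and 2.99. CG11151 had 1.5, 2.67 and 2.91, and CG10650 0.26, 1.01 and 2.85. All 6 had a Sox21a mean above the median of all genes (0.12).

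Shared genes with the lowest Sox21a, named after their values were seen, included housekeeping genes. ATPsyngamma, a subunit of mitochondrial ATP synthase, had -0.48, 1.88 and 1.56. Syx16, a SNARE of the Golgi, had -0.46, 2.27 and 1.20, and the translation initiation factor gene eIF3i had -0.25, 2.85 and 2.18. In these 3 genes Pol II was high in ISC/EBs and Sox21a was below 0. The gene of the largest Pol II subunit, Polr2A, had -0.11, 2.46 and 1.52 over 55 fragments. Which subunit was fused to Dam was not determined here, so Pol II signal at Polr2A cannot be told apart from DNA of the Dam-Pol II transgene.

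Among shared genes with a peak, some had much more Pol II in ECs than in ISC/EBs. These were also named after their values were seen. The excess was largest in CG10562 (1.80, 1.61 and 3.33) and CG43120 (1.74, 1.57 and 3.13). It was also seen in the juvenile hormone epoxide hydrolase gene Jheh3 (0.42, 1.20 and 2.75) and the G protein alpha subunit gene Galphaf (1.15, 1.40 and 2.71), which overlaps asRNA:CR46033.

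The gene lists were read against the share of each class with a peak, which was 6.87% of EC-only, 21.2% of intermediate, 49.1% of shared and 41.5% of all EC genes. Few digestive protease genes carried a peak, and most of them were EC-only. Of 12 trypsin genes with at least 3 fragments, 10 were EC genes, 8 of them EC-only, and none carried a peak, beside 19.6% of all genes. The list had a median of 8 fragments, and 3.39% of EC-only genes with 5 to 9 fragments carried a peak. A count of 0 is thus near the background. The list median of Sox21a was 0.01, and the ends of the EC members were betaTry (-0.25), epsilonTry (-0.15), iotaTry (0.42) and thetaTry (0.62). The last pair also had the most ISC/EB Pol II of these 4 (1.37 and 0.83), against -0.21 and 0.14 in betaTry and epsilonTry. Fragments covering 96.2% of gammaTry read exactly 0 in all 3 tracks, so its value gives no measurement. Over most of deltaTry the Sox21a track also read exactly 0. Neither is an EC gene, but both are counted among the 12 and in the list median.

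Of 16 Jonah protease genes measured, 10 were EC genes, 9 of them EC-only. The only one with a peak was Jon65Aiv, an intermediate gene (0.47, 0.54 and 1.13). The list had a median of 7 fragments. A count of 0 among its EC-only members is thus also near the 3.39% of EC-only genes with 5 to 9 fragments. The list median of Sox21a was -0.07. At the upper end was also Jon25Biii (0.12, 0.01 and 1.21). Of 5 lysozyme genes measured, 3 were EC genes and none carried a peak. Their median was 3 fragments, and of all genes with 3 to 4 fragments 11.1% carried a peak, so a count of 0 is near the background. LysE (-0.11, 0.18 and 2.78) and LysS (-0.02, 0.11 and 1.17) were EC-only, and LysP (0.52, 0.87 and 1.78) was intermediate. These genes lie within mwh, which is itself one of the 25 EC-only genes with a peak. The EC Pol II mean of mwh (1.29) therefore includes their fragments. Its peak also covers CG9119, with Pol II of 2.85 in ISC/EBs and 2.21 in ECs. Signal of mwh itself cannot be told apart from that of these genes there.

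Enzymes of carbohydrate digestion were divided. Of 20 measured, 12 were EC genes. Near the 6.87% of all EC-only genes, none of the 6 EC-only members had a peak. They included the alpha-glucosidase gene tobi (-0.28, -0.09 and 2.35) and the amylase gene Amy-p (-0.15, 0.38 and 1.49). All 4 shared members carried a peak, and all belong to the maltase cluster on chromosome 2R. Mal-A1 had 0.97, 1.08 and 2.45, and the intermediate Mal-A8 had 1.26, 0.96 and 2.19. Within the same cluster Mal-A2 (0.03, 0.07 and 1.13) and Mal-A3 (0.21, 0.08 and 1.19) were EC-only with no peak.

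In genes of lipid uptake and metabolism, the EC members with a peak were all shared or intermediate. None of the 3 EC-only members carried one, a count near the 6.87% of all EC-only genes. Of 25 measured, 12 were EC genes and 8 of these had a peak, 6 of them shared. The list had a median of 28 fragments, and 70.5% of EC genes with 20 to 49 fragments carried a peak. At the upper end were fabp, which encodes a fatty acid binding protein (2.0, 2.70 and 2.80), and the lipid droplet perilipin gene Lsd-2 (1.93, 2.59 and 2.21). fabp shares its whole span with sea, so the value belongs to both. At the lower end were the secreted lipase gene mag (-0.13, 0.00 and 1.82) and Npc1b, needed for sterol absorption (-0.13, -0.15 and 1.5), with no peak nearer than 9037 and 103877 bp.

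**Figure D4:**
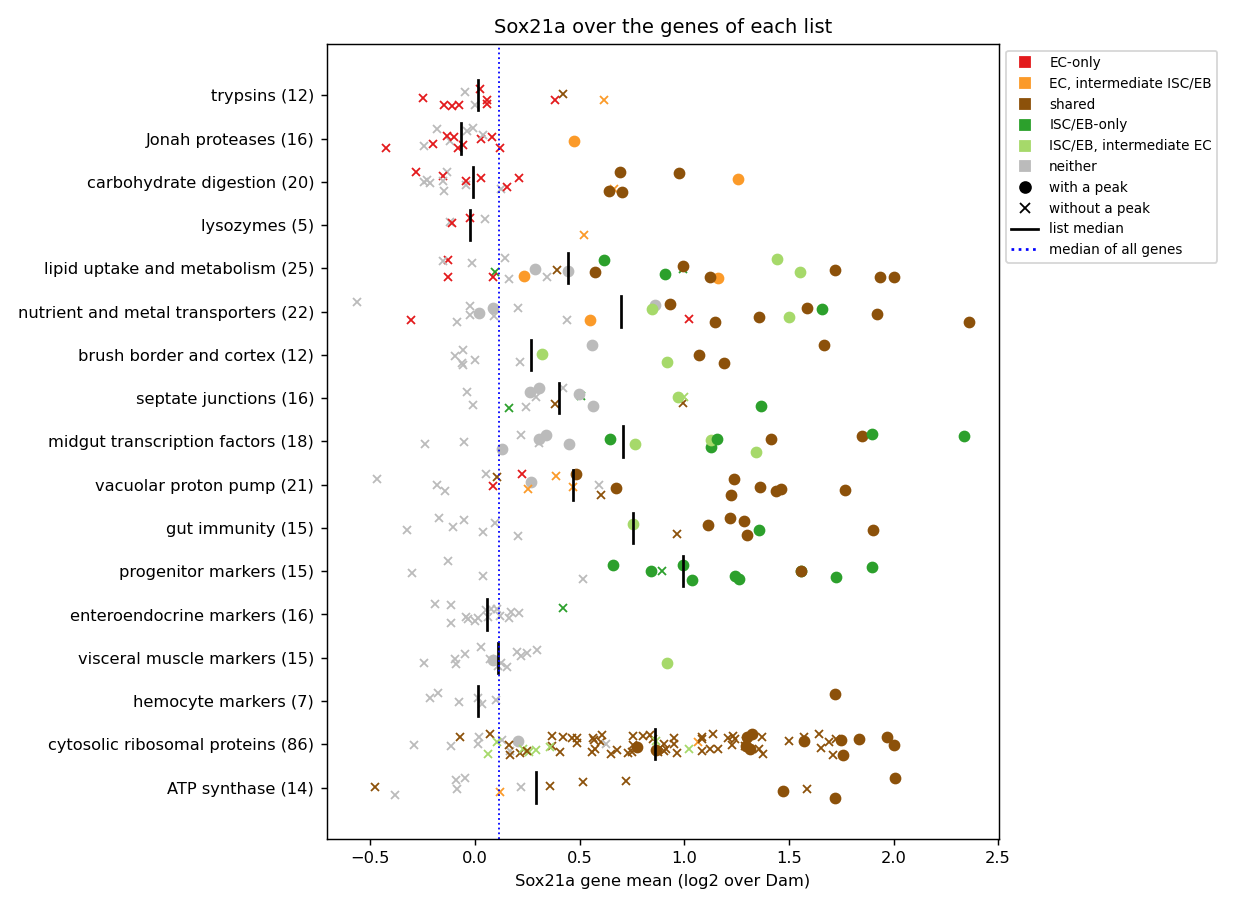
Sox21a gene mean (log2 over Dam) of every measured member of 17 gene lists, with the number of members in brackets; color gives the class by Pol II, circles have a Sox21a peak and crosses do not, black bars are list medians and the dotted line is the median of all genes (0.12). The 32 EC-only members (red) are all crosses, where 6.87% of all EC-only genes carry a peak.

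Genes of nutrient and metal transport included some of the higher Sox21a means. Of 22 measured, 9 were EC genes and 6 of these were shared. A peak was found in 7 of the 9, beside 41.5% of EC genes, and 8 had a Sox21a mean of at least 0.5, beside 69.9% of EC genes. The ferritin subunit genes Fer2LCH (2.36, 2.97 and 2.54) and Fer1HCH (1.92, 2.95 and 2.36) were highest. They overlap on chromosome 3R from 30385573 to 30390584 and share a peak. MFS1, a transporter of the major facilitator superfamily, was lowest (-0.30, -0.48 and 2.44), and the amino acid transporter gene slif (0.55, 0.57 and 1.83) was intermediate with a peak.

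Few structural genes of the EC passed the EC level. Of 12 brush border and cortex genes measured, 3 were EC genes, and all 3 were shared and carried a peak: the myosin genes Myo61F (1.19, 1.70 and 2.11) and Myo31DF (1.07, 1.47 and 1.30), and Moe, which links actin to the membrane (1.67, 2.21 and 1.20). These 3 genes are long, with 50 to 65 fragments. Of all shared genes with 50 or more fragments, 98.6% carried a peak, so 3 of 3 is near the background. Of 16 septate junction genes measured, only Ssk and the tetraspanin gene Tsp2A (0.38, 1.17 and 2.29) were EC genes, and neither had a peak. Of 21 genes of the vacuolar proton pump and its accessory proteins, 15 were EC genes and 8 of the 10 shared members had a peak. VhaM9.7-b (1.77, 2.77 and 2.31) and Vha16-1 (1.46, 2.22 and 2.20) were highest, and Vha13 (0.09, 0.36 and 1.28) and ATP6AP2 (0.11, 1.31 and 1.96) were lowest. None of the 2 EC-only and 3 intermediate pump members carried a peak, a count near the shares of those classes.

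Immune genes included members of the Imd pathway, which senses bacterial peptidoglycan. Of 15 gut immunity genes measured, 6 were EC genes, all shared, and 5 of them had a peak. The other 9 were under the EC level. Among these, the NF-kappaB gene Rel (0.75, 1.44 and 0.93) and PGRP-SD (1.36, 1.64 and -0.31) carried peaks, and the rest had Pol II below 1 in both populations. The membrane receptor gene PGRP-LC had 1.90, 2.57 and 1.03 and overlapped 3 peaks. The amidase gene PGRP-LB had 1.30, 1.93 and 1.04, and imd, the adaptor, had 1.11, 2.97 and 2.24. The intracellular receptor gene PGRP-LE (0.97, 1.60 and 1.79) had no peak in its body.

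Among 18 midgut TF genes, 14 carried a peak, although only GATAe and Hnf4 were EC genes. GATAe, which encodes the GATA factor of the endoderm, had 1.42, 2.16 and 2.10, and Hnf4, a nuclear receptor that controls lipid metabolism, had 1.85, 2.52 and 1.45. Just under the EC level were cad (1.34, 1.91 and 0.96), Ptx1 (1.13, 1.38 and 0.87), srp (0.77, 1.01 and 0.80) and nub (0.30, 0.24 and 0.63), all with a peak. The list median of Sox21a was 0.71. These genes are long, with a median of 50.5 fragments, and 45.3% of all genes with 50 or more fragments carried a peak. The list also had a median ISC/EB Pol II of 1.20. Of ISC/EB-only genes, 79.6% with 20 to 49 fragments and 98.0% with 50 or more carried a peak. Of genes with Pol II below 1 in both populations and 50 or more fragments, 33.0% did. The count of 14 is therefore not read as particular to these genes.

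Of the remaining TF genes, esg (1.90, 3.63 and -0.10), Sox21a itself (2.34, 3.46 and -0.43), zfh2 (1.16, 1.86 and -0.34), fkh (1.13, 1.88 and 0.30) and Sox100B (0.65, 1.45 and -0.06) were ISC/EB-only and carried peaks. The Sox21a locus also supplies the coding sequence of the Dam fusion, so its value cannot be told apart from the transgene. Peaks were also found in dve (0.45, 0.55 and 0.50), tup (0.34, 0.16 and -0.08) and hth (0.13, 0.06 and 0.03). The genes without a peak were lab (0.31, 0.44 and 0.08), pdm2 (0.22, -0.02 and -0.02), exd (-0.05, 0.21 and 0.14) and vvl (-0.24, -0.23 and -0.17).

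Most ribosomal protein genes were shared but carried no peak. Of 86 cytosolic ribosomal protein genes measured, 69 of the 70 EC genes were shared, and 12 EC members had a peak, beside 30.3% of EC genes with 5 to 9 fragments. The list median of Sox21a was 0.86, above that of all genes, and 57 EC members reached 0.5. These genes had a median of 5.5 fragments. The ends were RpS28b (2.0, 3.07 and 2.42), RpL21 (1.97, 3.41 and 2.33), RpS21 (0.07, 1.67 and 1.78) and RpL8 (-0.07, 2.17 and 1.52). Of 14 ATP synthase genes, 9 were EC genes and 3 had a peak, from ATPsynG (2.01, 3.27 and 2.26) and ATPsynD (1.72, 2.56 and 1.84) down to ATPsynB (0.12, 0.95 and 1.24) and ATPsyngamma.

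Progenitor and other cell type lists held few EC genes. Of 15 progenitor markers measured, 10 had a peak, and the only EC gene was the cell cycle kinase gene Cdk1 (1.56, 2.71 and 2.14). In this list 10 genes were ISC/EB-only, and the median was 27 fragments. Of all ISC/EB-only genes 44.8% carried a peak, and of those with 20 to 49 fragments 79.6%. The 16 enteroendocrine markers held no EC gene and no peak, and the 15 visceral muscle markers no EC gene and 2 peaks. Of genes with Pol II below 1 in both populations 8.30% carried a peak, so these counts are near the background. The 7 hemocyte markers held 1 EC gene, the scavenger receptor gene crq (1.72, 2.58 and 1.25), with a peak. Over the 17 lists, 0 of 32 EC-only members carried a peak, with an interval up to 10.7%, which includes the 6.87% of all EC-only genes. After quantile normalisation of the ISC/EB track, Jon65Aiv, Npc2d and slif, intermediate genes with a peak, became EC-only.

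Tracks along 4 loci show these patterns fragment by fragment. In the trypsin cluster EC Pol II reached above 2 and no peak was called. Sox21a and ISC/EB Pol II were low over most of it but reached 0.82 and 1.10 in fragments over thetaTry, and 1.42 and 2.54 in the fragment at the end of iotaTry. Over fabp all 3 tracks were raised together under a peak. At Ork1 EC Pol II extended over much of the gene, and Sox21a rose with ISC/EB Pol II at 1 stretch. At Ssk Sox21a was raised over the gene and its surroundings, but the called peak began 6.3 kb from the gene's centre.

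**Figure D5:**
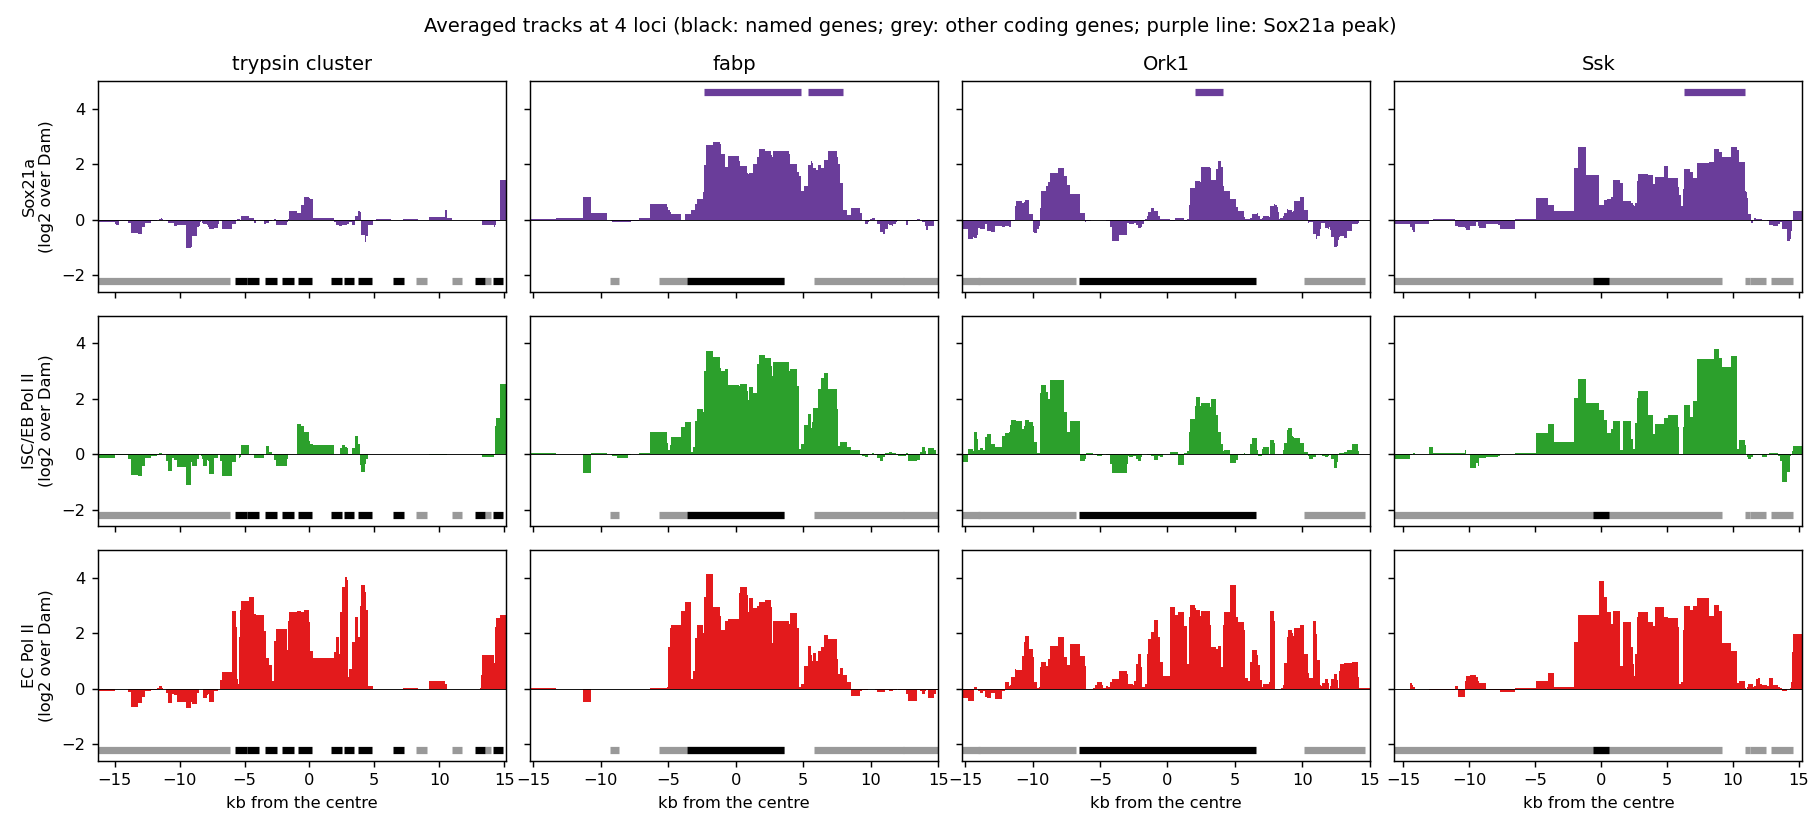
Averaged log2 ratio of each GATC fragment for Sox21a (purple), ISC/EB Pol II (green) and EC Pol II (red) against distance in kb from the centre of the trypsin cluster, fabp, Ork1 and Ssk. Black bars are the named genes, grey bars other coding genes and purple lines Sox21a peaks; the trypsin cluster has high EC Pol II and no peak.

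The EC level of 1 cut through a continuous range. CG10907 and nst lay just under it (both 0.999), with Sox21a of 0.62 and 0.96. CG13901 and rasp lay just above (both 1.0), with Sox21a of 0.31 and 0.44. None of these 4 genes had a peak, and all had ISC/EB Pol II above 1.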

How the data were processed

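For each of 3 experiments, the authors deposited log2 ratios of fusion to Dam for 383654 GATC fragments (median 197 bp), averaged over samples. They also deposited 2769 Sox21a peaks (FDR below 0.01), whose score is on a log2 scale. Aligner, read counting, normalization and peak calling: not given in the sources used here. A gene mean averaged the log2 ratios of all fragments in a Release 6 gene, each weighted by its bases inside the gene (pandas 2.3.3 and numpy 2.4.6 under Python 3.11.15, with scipy 1.17.1 for intervals). Of 17807 genes, 3010 with fewer than 3 fragments were left out. Gene means equalled a direct sum in 200 of 200 genes checked. A gene was bound where at least 1 bp of a peak overlapped its body. The gene table has no strand or exons, so both flanks of a gene were used, and gene starts and motifs were not analysed.

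The classes and gene lists were chosen with earlier results of these data known. Named genes were the 10 EC-only genes with a peak and the highest Sox21a and the 10 with no peak within 2 kb and the highest EC Pol II (6 each for shared genes), with at least 4 fragments and skipping overlaps. They also include the 2 EC members at each end of every list, all midgut TFs, the 2 genes on each side of the EC level, cell type markers, and driver and transgene loci. Other genes were named after their values were seen. Alternatives changed the thresholds, weights, fragments, genes and scaling. Of the listed genes, Dl was not placed, and He, LysC, LysD, Npc2e, MtnB, MtnD, DptA, CecA1, Drs and some ribosomal protein and ATP synthase genes had too few fragments.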

Additional observations from a re-analysis of the deposited data

How the results depend on the processing

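No paired analysis was possible because the deposited tracks are averages over samples and carry no replicate values; for the same reason no sample could be left out. Across 12 other settings, 38 of 66 recomputed values stayed within counting error or the set margin of the reported value, 28 moved, and no sign changed. Some of those that stayed could not move. Quantile normalisation of the ISC/EB track cannot change the number of EC genes or their share with a peak. A peak score of at least 1 left every count of genes with a peak the same. With an EC level of 0.5 there were 4799 EC genes, a peak in 36.8% of them and in 44.7% of shared genes, and a shared median Sox21a of 0.92; with 1.5 these were 1505, 44.9%, 53.1% and 1.21. With at least 1 fragment, 39.3% of EC and 46.2% of shared genes had a peak. With at least 10 fragments there were 1349 EC genes, with a peak in 54.0% of EC, 66.6% of shared and 10.3% of EC-only genes, and a partial correlation with EC Pol II of 0.10. A required overlap of 500 bp gave 33.5%, 40.4% and 2.47%, and a peak within 2 kb gave 50.8%, 58.3% and 13.5%. A Sox21a mean of at least 0.5 in place of a peak gave 69.9% of EC and 82.8% of shared genes. Quantile normalisation of the ISC/EB track gave a peak in 51.7% of shared and 10.6% of EC-only genes, with median Sox21a of 1.18 and 0.16, the second now above the 0.12 of all genes, and protein-coding genes had a shared median of 1.03. In each of these settings the share in shared genes was above that in EC-only genes. Leaving out fragments at 0 in all 3 tracks, chosen after seeing the data, and peaks with a score under 1 moved none of the values.

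At matched ISC/EB Pol II after quantile normalisation, EC and other genes had peaks in 15.7% and 15.8% (0 to 0.5), 38.5% and 33.0% (0.5 to 1), 47.1% and 51.3% (1 to 2), and 67.9% and 95.5% (2 and above). The order of these shares given in the report was reversed in each of the ranges from 0 to 2.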
